A study of Mus musculus with 12 samples.

Results

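The genes described here are 31 genes reported to be more highly expressed in aged than in young haematopoietic stem cells (HSC), among them the metallothioneins Mt1 and Mt2, Nupr1, Aldh1a1, Clca3a1, Jam2, Neo1, Runx1t1 and Wwtr1. An accessible region of the study's table was given to a gene when it overlapped the gene's protein-coding RefSeq body, or otherwise when that body was the nearest within 100 kb. This gave the 31 genes 364 of the 188262 regions, 235 inside a gene body and 129 outside. Each gene had at least 1 region. Distance alone does not tell which gene a region regulates.

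The study made 12 ATAC-seq libraries from male mice. ATAC-seq reads open chromatin as the DNA that the Tn5 transposase can reach and tag. The comparison asked what loss of Phf6, an X-linked chromatin-associated gene mutated in leukaemia, does to accessibility. The KO mice were Phf6−/Y Rosa26+/Cre-ERT2, in which the allele is deleted and a Cre recombinase that tamoxifen activates is driven from the widely expressed Rosa26 locus. The WT mice were Phf6f/Y Rosa26+/+, with a floxed, undeleted allele and no Cre. The groups were KO MPP, WT MPP, KO LT-HSC and WT LT-HSC with 3 libraries each, and the mice are described as 8 weeks after tamoxifen. The sources used here do not give their age, and no group is labelled young or old. LT-HSC, long-term HSC, came from 3 individual mice per genotype as 20000 sorted cells. MPP are multipotent progenitors, the early descendants of LT-HSC. The sources used here do not say how the MPP were obtained or if MPP and LT-HSC libraries of 1 number share a mouse. Where mice are not stated to be separate, p-values measure only the spread between libraries. Every KO mouse carried Cre-ERT2 and no WT mouse did, so effects of Cre and of Phf6 loss cannot be told apart.

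HSC persist through life, and with age they become more numerous and yet worse at rebuilding blood, above all the lymphoid lineages. Their transcription drifts with age towards genes of stress response, cell adhesion, retinoid handling and platelet-biased differentiation, and much of this programme belongs to the most quiescent stem cells rather than to cycling progenitors. Accessibility is a measure of open chromatin at promoters and enhancers and is not itself expression.

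The libraries held 22665988 to 48547234 counts in regions. Levels are CPM, counts relative to library size after TMM scaling, given per library or as mean ± SD (n = 3), and log2 fold changes are given ± SE. A region or gene passed when its adjusted p in edgeR's quasi-likelihood test (Benjamini-Hochberg over all regions or genes) was under 0.05. Of the 364 regions, 357 had enough counts to be tested, and the 7 left out lay at Dsg2 (6) and Alcam (1). The marker genes of both populations were accessible in all groups. Summed over 5 LT-HSC marker genes (Procr, Hlf, Mecom, Fgd5, Slamf1) the levels were 505 to 521 CPM in KO MPP and 472 to 516 CPM in WT MPP, against 848 to 852 CPM in KO LT-HSC and 780 to 799 CPM in WT LT-HSC. For 3 MPP marker genes (Flt3, Cd34, Cd48) they were 417 to 419 CPM in KO MPP and 417 to 418 CPM in WT MPP, against 260 to 264 CPM in KO LT-HSC and 245 to 251 CPM in WT LT-HSC. In bulk libraries, fewer cells with a region open and less open chromatin per cell cannot be told apart.

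The start of a gene is where regulation of these genes can be read at the sequence level, and the RefSeq promoter table (GRCm38.p6) gave windows from 250 bases before to 50 bases after a start for 23 of the 31 genes. The 5 windows below belong to the genes whose start regions carry the results that follow: Mt1, whose start was more accessible in MPP than in LT-HSC, Mt2, whose window overlaps a region that was higher and a region that was lower in MPP, Aldh1a1 and Clca3a1, whose starts were less accessible in MPP, and Wwtr1, whose start differed between KO and WT. They lie at chr8:94178839-94179138 (Mt1, plus strand), chr8:94172368-94172667 (Mt2, plus), chr19:20601718-20602017 (Aldh1a1, plus), chr3:144760928-144761227 (Clca3a1, minus) and chr3:57575861-57576160 (Wwtr1, minus). Capitals mark matches on either strand to the metal response element core (TGCGCNC or TGCACNC), AP-1 (TGANTCA), RUNX factors (TGTGGT), factors of the GATA family (AGATAA), ETS factors (AGGAAGT) or the antioxidant response element core (TGACNNNGC).
Mt1: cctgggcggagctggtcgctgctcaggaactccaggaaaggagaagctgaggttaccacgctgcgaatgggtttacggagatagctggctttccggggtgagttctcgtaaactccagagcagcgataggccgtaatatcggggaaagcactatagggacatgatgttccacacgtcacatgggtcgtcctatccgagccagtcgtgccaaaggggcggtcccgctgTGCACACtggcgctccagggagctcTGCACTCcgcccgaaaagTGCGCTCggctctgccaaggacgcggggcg
Mt2: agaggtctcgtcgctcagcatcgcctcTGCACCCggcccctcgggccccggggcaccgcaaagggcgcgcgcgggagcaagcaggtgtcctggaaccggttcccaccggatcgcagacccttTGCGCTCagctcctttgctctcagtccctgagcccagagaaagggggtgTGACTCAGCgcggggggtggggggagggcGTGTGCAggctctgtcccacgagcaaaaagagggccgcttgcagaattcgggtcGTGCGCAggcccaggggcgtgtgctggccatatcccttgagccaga
Aldh1a1: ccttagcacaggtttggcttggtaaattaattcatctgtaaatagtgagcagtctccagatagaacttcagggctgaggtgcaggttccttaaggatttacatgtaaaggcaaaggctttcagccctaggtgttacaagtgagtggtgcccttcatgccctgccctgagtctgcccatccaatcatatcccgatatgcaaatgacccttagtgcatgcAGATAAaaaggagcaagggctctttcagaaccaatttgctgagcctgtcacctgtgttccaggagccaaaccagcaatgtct
Clca3a1: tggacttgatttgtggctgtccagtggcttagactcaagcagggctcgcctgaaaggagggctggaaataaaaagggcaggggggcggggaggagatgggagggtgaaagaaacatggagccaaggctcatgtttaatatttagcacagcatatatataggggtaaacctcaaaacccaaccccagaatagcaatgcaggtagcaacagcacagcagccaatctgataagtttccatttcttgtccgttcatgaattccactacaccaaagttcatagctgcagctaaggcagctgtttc
Wwtr1: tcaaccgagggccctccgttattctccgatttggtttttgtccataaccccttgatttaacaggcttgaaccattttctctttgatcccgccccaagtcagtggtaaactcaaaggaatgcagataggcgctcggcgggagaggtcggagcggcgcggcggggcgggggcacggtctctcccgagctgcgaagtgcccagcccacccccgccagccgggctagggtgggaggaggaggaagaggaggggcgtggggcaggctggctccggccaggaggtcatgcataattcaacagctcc

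Metal response elements are the sites through which metals induce metallothionein genes. The Mt1 window held 3 matches to their core and the Mt2 window held 4, and in Mt2 an AP-1 match lay within an antioxidant response element match, so that these letters count for both. Ghr had the only other member window with 3 or more cores. Over all 32851 windows of the table, 1.97% held 3 or more cores, 25.7% held at least 1, 7.81% held AP-1 and 11.2% held GATA. Of the 27 member windows, 9 held a metal response core, 6 AP-1, 5 ETS, 3 the antioxidant core, 2 GATA and 1 RUNX, where ETS matched 9.35%, the antioxidant core 12.4% and RUNX 16.8% of all windows. The Aldh1a1 window held 1 GATA match, and those of Clca3a1 and Wwtr1 held none of the 6 motifs. A match is a string of letters, not evidence that a factor binds.

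The signature genes were more accessible in stem cells than in progenitors. In WT mice 198 of the 357 tested regions (55.5%) were lower and 76 (21.3%) higher in MPP than in LT-HSC, against 35.2% lower and 34.6% higher among all tested regions. The median log2 fold change was -0.57 over the 357 regions and 0.01 over all regions. In KO mice the counts were 207 lower and 77 higher, against 34.4% lower and 33.3% higher of all regions, with a median of -0.60. Every gene had at least 1 region that was lower in WT MPP, and 19 of them also had 1 that was higher. The share of all genes with such regions was not counted, so this is not shown to be a trait of the signature genes. Regions inside the bodies had a median of -0.82 (148 lower and 41 higher of 235), those outside -0.29 (50 lower and 35 higher of 122), and the 22 regions at a gene start -0.95 (17 lower and 3 higher). All 13957 tested regions at a gene start in the genome had a median of 0.02.

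**Figure D1:**
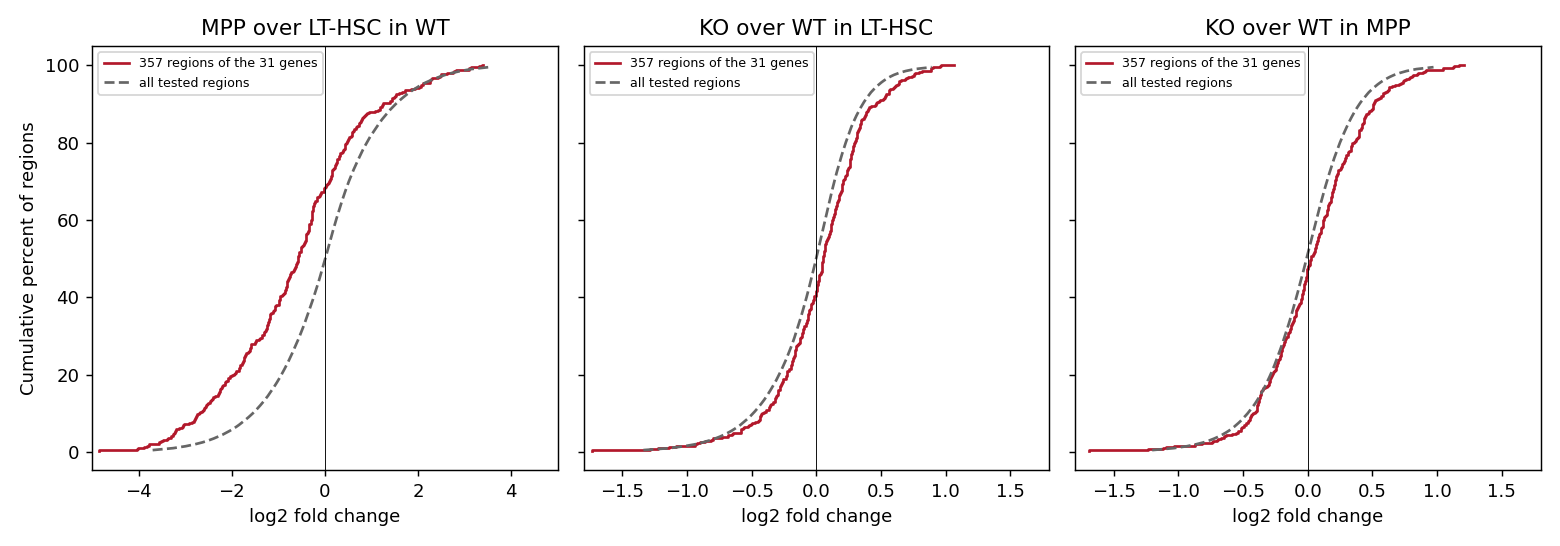
Cumulative share of regions (y axis, percent) by log2 fold change (x axis) for the 357 tested regions of the signature genes and for all 186373 tested regions, in the MPP over LT-HSC comparison of WT mice and in KO over WT of each population. The curve of the signature genes lies to the left of that of all regions for MPP over LT-HSC, with medians of -0.57 and 0.01, and close to it for KO over WT, with medians of 0.05 and 0.00 in LT-HSC and 0.03 and -0.01 in MPP.

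Summing all regions of a gene gives 1 value per library and gene, tested over 18826 genes. On these sums 26 of the 31 genes were lower and 3 were higher in WT MPP than in WT LT-HSC, where 36.6% of all genes were lower and 36.7% higher. The 3 higher genes were Arap2, an Arf GTPase-activating protein, Cd38, a surface enzyme that breaks down NAD, and Mt1, with log2 fold changes of 0.52 ± 0.06, 0.30 ± 0.06 and 0.27 ± 0.04. Gstm2 and Alcam did not pass, at -0.13 ± 0.13 and -0.04 ± 0.03.

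**Figure D2:**
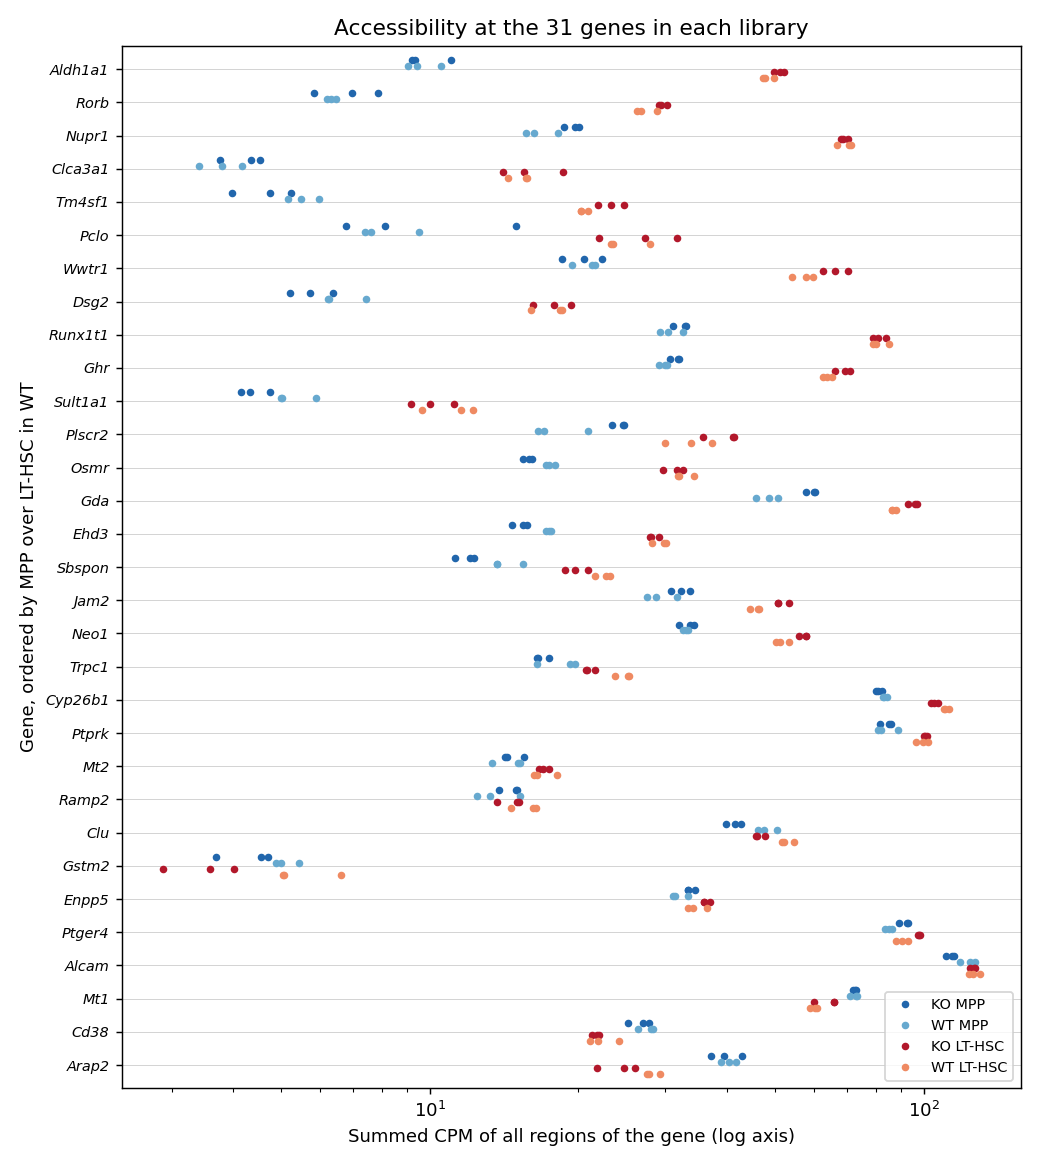
Summed CPM over all regions of each of the 31 genes (x axis, log scale), 1 dot per library, with KO MPP, WT MPP, KO LT-HSC and WT LT-HSC from top to bottom within each gene. Aldh1a1 lay at 9.20 to 11.02 CPM in KO MPP and 9.03 to 10.5 CPM in WT MPP, against 49.8 to 52.1 CPM in KO LT-HSC and 47.3 to 49.7 CPM in WT LT-HSC, while the dots of Alcam and Mt2 lie close together.

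Nearly all regions of the transcriptional regulators were lower in progenitors. Of 47 tested regions at Runx1t1, Wwtr1 and Rorb, 45 (95.7%) were lower and 1 (2.13%) was higher in WT MPP, with a median of -2.04. Among all tested regions 35.2% were lower and 34.6% higher. Runx1t1 encodes the corepressor ETO, Wwtr1 the Hippo pathway coactivator TAZ, and Rorb a nuclear receptor. At the start of Rorb (chromosome 19, 19111066 to 19111473) WT MPP had 3.76, 4.04 and 3.69 CPM, against 16.3, 13.7 and 13.9 CPM in WT LT-HSC (log2 fold change -1.93 ± 0.10, adjusted p = 7.32e-17). At the start of Wwtr1 (chromosome 3, 57575595 to 57576101), whose sequence is given above, the levels were 3.81, 3.40 and 4.06 CPM in WT MPP and 17.0, 17.2 and 14.4 CPM in WT LT-HSC (-2.12 ± 0.10, adjusted p = 6.1e-18). Progenitor and stem cell libraries were apart by more than 3 times at both starts. Summed over Runx1t1, which has no window in the promoter table, levels were 29.3, 30.4 and 32.6 CPM in WT MPP and 85.1, 80.2 and 79.2 CPM in WT LT-HSC (-1.41 ± 0.05, adjusted p = 6.59e-16).

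Among stress and metabolic genes the picture was mixed, with 49 regions lower (52.7%) and 24 higher (25.8%) of 93 and a median of -0.43. Among all tested regions 35.2% were lower and 34.6% higher. Nupr1, a stress-induced nuclear protein, had its main region 1398 bases outside the gene body (chromosome 7, 126621372 to 126621848). This region held 3.38, 4.06 and 4.02 CPM in WT MPP and 43.1, 42.2 and 45.7 CPM in WT LT-HSC (log2 fold change -3.51 ± 0.08, adjusted p = 1.08e-24). At the start of Nupr1 itself (126625351 to 126625820) the difference was smaller, with 1.35, 1.79 and 1.05 CPM in WT MPP and 2.64, 2.25 and 2.72 CPM in WT LT-HSC (-0.82 ± 0.20, adjusted p = 0.00066). At both regions every MPP library lay below every LT-HSC library. The call at the start ended with the gene-end covariate described below.

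Aldh1a1 makes retinoic acid from retinaldehyde, and Cyp26b1 degrades it. The Aldh1a1 start (chromosome 19, 20601680 to 20602128) had 1.98, 1.81 and 1.56 CPM in WT MPP and 12.4, 11.8 and 12.7 CPM in WT LT-HSC (-2.77 ± 0.11, adjusted p = 1.1e-19). A second region in its body (20614225 to 20614737) had 1.69 ± 0.148 CPM in WT MPP and 16.3 ± 1.29 CPM in WT LT-HSC (-3.27 ± 0.12, adjusted p = 2.38e-20). Cyp26b1 had regions that changed in both directions, and its sum had a log2 fold change of -0.42 ± 0.03. Guanine deaminase, Gda, which turns guanine into xanthine, had regions of opposite behaviour within and around 1 gene. A region 5604 bases outside the body (chromosome 19, 21478265 to 21478708) had 0.208 ± 0.093 CPM in WT MPP and 3.30 ± 0.305 CPM in WT LT-HSC (-3.88 ± 0.23, adjusted p = 1.18e-15). An intragenic region (21461210 to 21461617) had 3.78 ± 0.607 CPM in WT MPP and 0.617 ± 0.173 CPM in WT LT-HSC (2.62 ± 0.20, adjusted p = 2.62e-13).

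**Figure D3:**
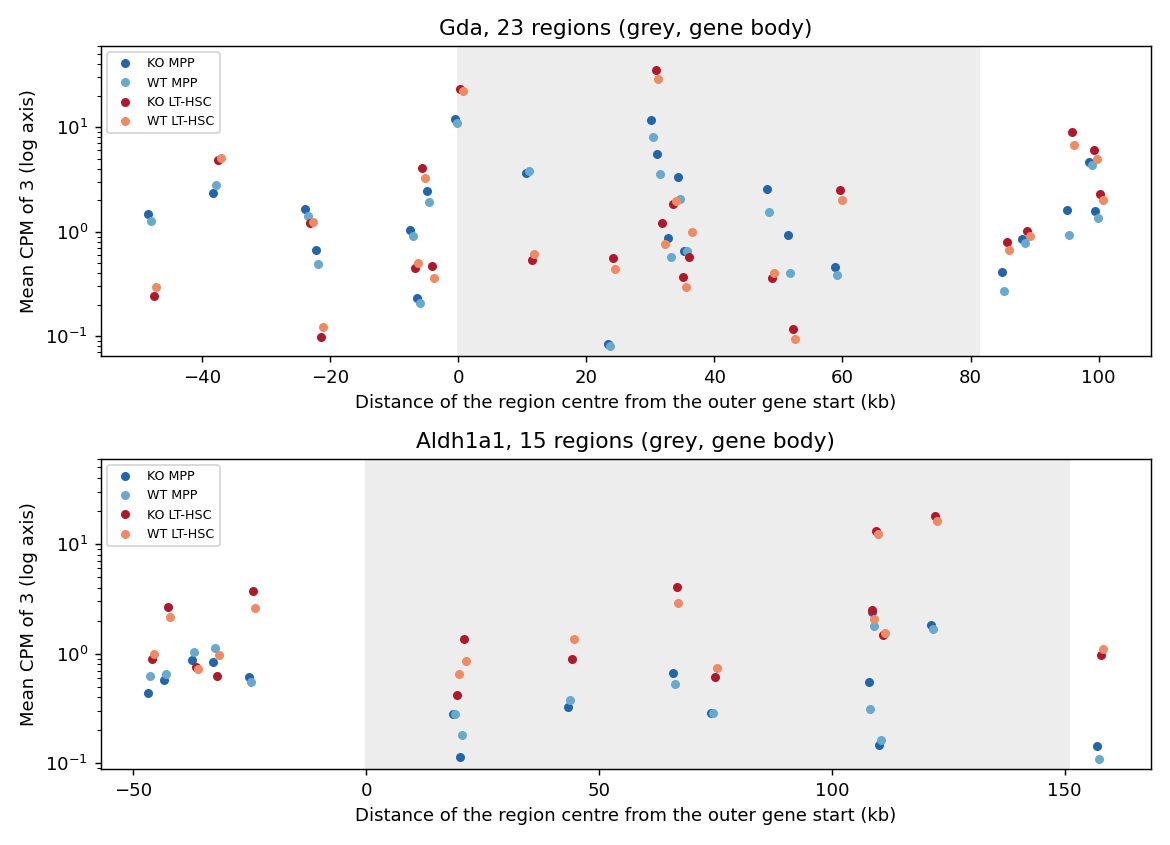
Mean CPM of each region (y axis, log scale) by distance from the start coordinate of the gene body in kb (x axis) at Gda with 23 regions and Aldh1a1 with 15 regions, in the 4 groups, with the gene body in grey. At Gda some regions lie higher in MPP and others higher in LT-HSC, as for the regions at 3.78 CPM in WT MPP against 0.617 CPM in WT LT-HSC and at 0.208 CPM in WT MPP against 3.30 CPM in WT LT-HSC, and at Aldh1a1 the strongest regions lie higher in LT-HSC of both genotypes.

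Metallothioneins are small proteins that bind zinc and cadmium. Mt1 went against the majority, and Mt2 was lower in MPP on its sum. The region over the Mt1 start (chromosome 8, 94178864 to 94179290), which covers its 3 metal response cores, held 18.3, 19.2 and 19.2 CPM in WT MPP and 12.4, 13.1 and 14.4 CPM in WT LT-HSC. It was higher in WT MPP (0.51 ± 0.08, adjusted p = 1.7e-06), with every MPP library above every LT-HSC library. At Mt2 the sum over all 5 regions was 13.4, 15.1 and 15.3 CPM in WT MPP and 16.5, 18.1 and 16.3 CPM in WT LT-HSC (-0.22 ± 0.07, adjusted p = 0.00728, lost without WT LT-HSC 2 or WT MPP 1). Its window overlaps a pair of regions. The one over the start (94172431 to 94172942) held 3.73, 5.25 and 4.29 CPM in WT MPP and 3.61, 3.54 and 3.56 CPM in WT LT-HSC (0.32 ± 0.13, adjusted p = 0.0286). Its log2 fold change ran from 0.16 to 0.48 over the alternatives, and the call ended with DESeq2, with total counts, with the gene-end covariate and without WT LT-HSC 1, 2 or 3 or WT MPP 2. The one next to it upstream (94171998 to 94172399) held 2.004, 1.52 and 1.59 CPM in WT MPP and 2.81, 2.56 and 2.55 CPM in WT LT-HSC (-0.63 ± 0.16, adjusted p = 0.00108), and kept its call under all 16 alternatives. Gstm2, a glutathione transferase, had a lower start (-2.20 ± 0.27) and a higher flanking region (1.24 ± 0.23). Sult1a1, a sulfotransferase, was lower at its start (-1.83 ± 0.15).

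Of 118 regions at adhesion and surface genes 52 (44.1%) were lower and 30 (25.4%) higher in WT MPP, against 35.2% and 34.6% of all tested regions. Tm4sf1, a tetraspan surface protein, had 1.30, 1.33 and 1.05 CPM in WT MPP and 11.7, 11.4 and 11.6 CPM in WT LT-HSC in its strongest region (chromosome 3, 57294650 to 57295460; -3.21 ± 0.12, adjusted p = 2.07e-20). The receptor tyrosine phosphatase gene Ptprk held the largest drop among the named regions, at 0.195 ± 0.115 CPM in WT MPP and 3.46 ± 0.335 CPM in WT LT-HSC in its body (chromosome 10, 28105239 to 28105705; -4.01 ± 0.26, adjusted p = 7.53e-15). Its start was at -0.28 ± 0.08, a call that ended with the gene-end covariate. Neo1, the netrin and repulsive guidance receptor neogenin, had intragenic regions at -3.40 ± 0.22 and at 1.71 ± 0.16. Cd38 was lower at the first of its named intragenic regions (43868943 to 43869693 on chromosome 5; -0.82 ± 0.11) and higher at another, with 4.33, 4.69 and 4.36 CPM in WT MPP and 0.975, 0.983 and 0.839 CPM in WT LT-HSC (43882007 to 43882476; 2.26 ± 0.16, adjusted p = 4.1e-14). The start of Alcam, an immunoglobulin-type adhesion molecule, did not pass, with 68.6, 69.5 and 70.3 CPM in WT MPP and 67.5, 66.7 and 72.7 CPM in WT LT-HSC (0.01 ± 0.05, adjusted p = 0.871).

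Secreted, signalling and trafficking genes also had more regions lower than higher in WT MPP, where all tested regions gave 35.2% lower and 34.6% higher. The secreted group (Clu, Sbspon, Clca3a1) had 10 of 18 regions lower and 3 higher, the receptors and signalling genes 29 of 62 lower and 17 higher, and the trafficking genes (Ehd3, Plscr2, Pclo) 13 of 19 lower and 1 higher. Among the receptors and signalling genes, Ptger4 had 9 regions higher and 4 lower, and Arap2 6 higher and 1 lower. Osmr, Ramp2, Ghr and Trpc1 each had more lower than higher. The start of Clca3a1, from a family of chloride channel regulators, had 0.777, 0.813 and 0.778 CPM in WT MPP and 8.46, 10.03 and 9.81 CPM in WT LT-HSC (chromosome 3, 144760691 to 144761153; -3.57 ± 0.16, adjusted p = 7.42e-19). Growth hormone receptor, Ghr, was lower at both of its start regions, at -1.61 ± 0.11 and -0.90 ± 0.07, and the oncostatin M receptor gene Osmr at -1.65 ± 0.16. Ptger4, the EP4 receptor for prostaglandin E2, held 34.5, 34.4 and 32.7 CPM in WT MPP and 37.6, 37.6 and 34.1 CPM in WT LT-HSC at its start (chromosome 15, 5244104 to 5244510), which did not pass (-0.10 ± 0.06, adjusted p = 0.129). Arap2 was higher at its start (0.40 ± 0.11, adjusted p = 0.00113), but with the gene-end covariate the log2 fold change was 0.12 (adjusted p = 0.614) and the call ended. A region 5702 bases outside the Arap2 body had 3.43, 3.98 and 3.79 CPM in WT MPP and 0.315, 0.337 and 0.463 CPM in WT LT-HSC (3.32 ± 0.21, adjusted p = 2.57e-15). Of 71 named regions called in WT, 59 kept the call under every alternative that gave a value.

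**Figure D4:**
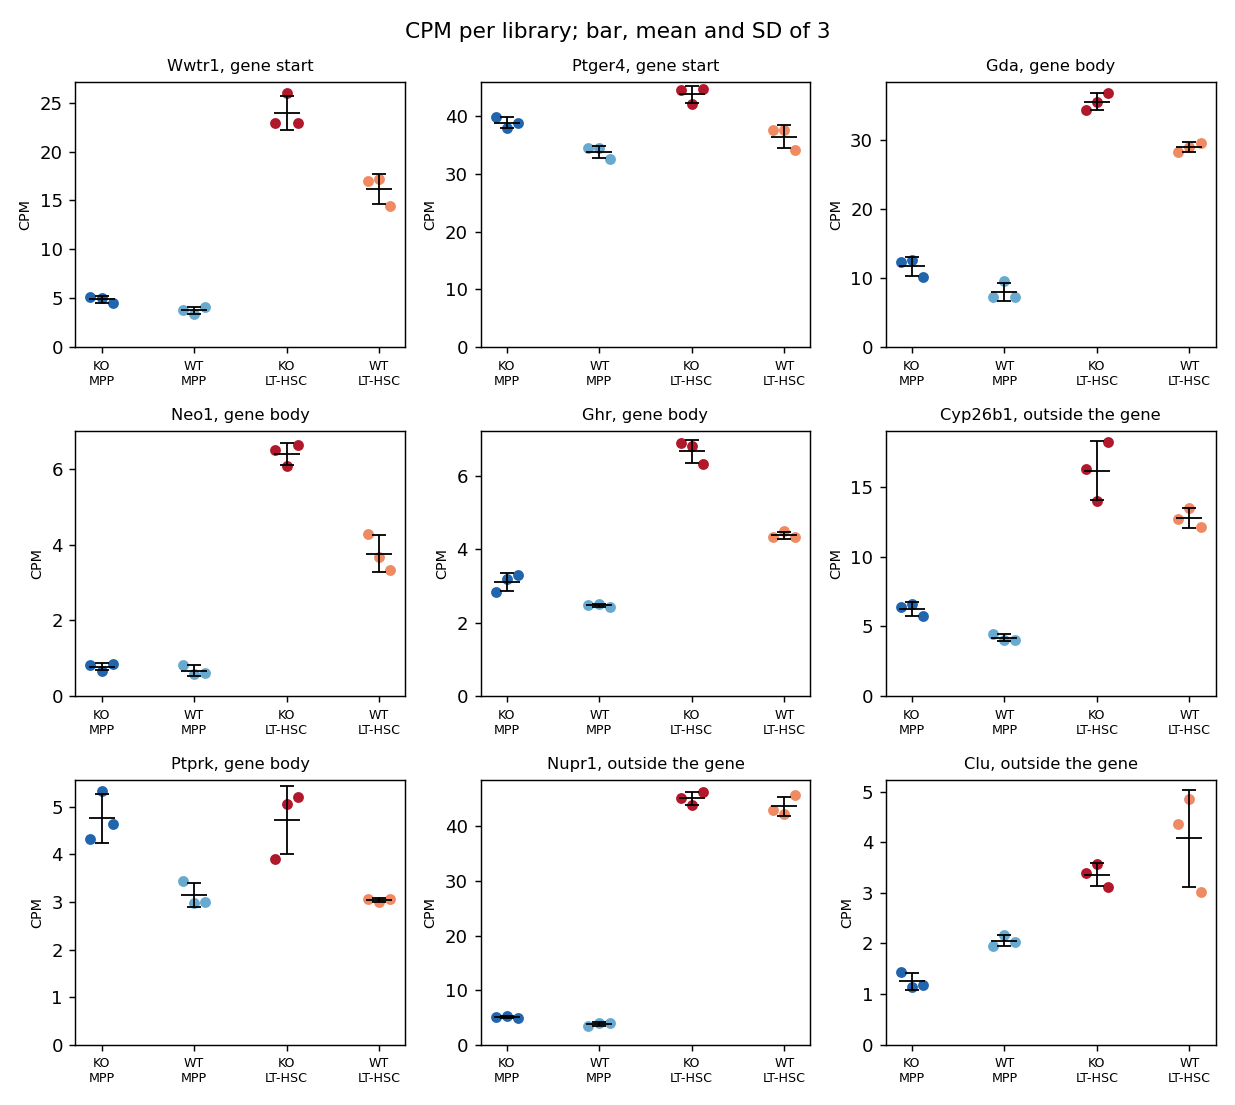
CPM (y axis, from 0) of 9 regions in every library, with KO MPP, WT MPP, KO LT-HSC and WT LT-HSC from left to right, and bars at the mean with SD (n = 3). The Nupr1 flanking region has means of 5.10, 3.82, 45.2 and 43.7 CPM in that order, and the Wwtr1 start 4.89, 3.75, 23.9 and 16.2 CPM.

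KO LT-HSC differed from WT LT-HSC at few regions of the signature genes. Of the 357 regions 18 (5.04%) were higher and 7 (1.96%) lower in KO than in WT LT-HSC, against 3.27% higher and 1.47% lower among all tested regions. The 18 higher regions belonged to 11 genes and the 7 lower regions to 7 genes, and 15 genes had neither. The median log2 fold change was 0.05 over the 357 regions and 0.00 over all regions. These counts fell whichever library was left out: without KO LT-HSC 1, 2 or 3 there were 7 higher regions each time, with 1, 2 and 1 lower, and without WT LT-HSC 1, 2 or 3 there were 9, 8 and 11 higher and 1, 1 and 4 lower. A smaller group also gives the test less power, so the falls do not show that the calls depend on any single library. With total counts in place of TMM scaling the split was 9 higher and 10 lower, with a loess offset 19 and 1, and with the gene-end share of each library as a covariate 2 and 1. Gene-end regions, those no farther than 1 kb from a gene's start or end, took 39.2% to 39.6% of the counts in KO LT-HSC and 37.8% to 38.9% in WT LT-HSC, and the part of this difference in the calls was not tested beyond that covariate. These ranges did not overlap, nor did those of WT MPP (39.2% to 41.0%) and WT LT-HSC. The covariate therefore runs alongside the groups, and a fit with it cannot fully separate them. Calls can be lost from this alone.

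The Wwtr1 start was the only called region among the 21 named in LT-HSC that kept its call under all 16 alternatives. It had 22.9, 26.0 and 23.0 CPM in KO LT-HSC and 17.0, 17.2 and 14.4 CPM in WT LT-HSC. All KO libraries lay above all WT libraries (log2 fold change 0.56 ± 0.09, adjusted p = 0.00034, from 5.5e-06 to 0.013 over the alternatives). Summed over all Wwtr1 regions, KO LT-HSC had 66.1, 70.4 and 62.5 CPM and WT LT-HSC 59.7, 57.8 and 54.2 CPM (0.21 ± 0.06, adjusted p = 0.0151, lost without KO LT-HSC 2 or WT LT-HSC 3). The other regulator with calls, Runx1t1, had 1 intragenic region higher (chromosome 4, 13786997 to 13787486; 0.82 ± 0.22) and 1 lower (13883703 to 13884133; -0.94 ± 0.26), and its sum did not pass (-0.01 ± 0.04). Both Runx1t1 calls ended with the gene-end covariate and without KO LT-HSC 1, 2 or 3 or WT LT-HSC 1 or 2, and that of the lower region also with the loess offset.

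Of the 118 regions at adhesion and surface genes, 8 (6.78%) were higher and 1 (0.847%) lower in KO LT-HSC, against 3.27% higher and 1.47% lower among all tested regions. At Neo1 4 intragenic regions were higher, among them 1 with 6.52, 6.08 and 6.63 CPM in KO LT-HSC and 4.30, 3.68 and 3.33 CPM in WT LT-HSC (chromosome 9, 58942008 to 58942506; 0.77 ± 0.13, adjusted p = 0.00092, lost with the gene-end covariate). A second (58925779 to 58926234) had 3.59 ± 0.548 CPM in KO LT-HSC and 2.102 ± 0.183 CPM in WT LT-HSC (0.75 ± 0.18, adjusted p = 0.0121), and lost its call with the gene-end covariate and without KO LT-HSC 3 (lowest to highest adjusted p over the alternatives, 0.0071 and 0.096). Ptprk had 1 intragenic region with 3.91, 5.06 and 5.21 CPM in KO LT-HSC and 3.07, 3.00 and 3.07 CPM in WT LT-HSC (chromosome 10, 28322976 to 28323417; 0.62 ± 0.14, adjusted p = 0.00806), a call that ended with the gene-end covariate and without KO LT-HSC 2. The start of Neo1 did not follow its body, with 11.8 ± 0.552 CPM in KO LT-HSC and 13.2 ± 1.62 CPM in WT LT-HSC (-0.16 ± 0.10, adjusted p = 0.397). Cd38 had 1 lower region, 9166 bases outside its body, with 0.303, 0.354 and 0.312 CPM in KO LT-HSC and 0.631, 0.786 and 0.723 CPM in WT LT-HSC (chromosome 5, 43921540 to 43921956; -1.14 ± 0.33, adjusted p = 0.0371). Leaving out any of the 6 LT-HSC libraries ended that call, as did limma-voom and the loess offset.

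Of the 62 regions at receptor, channel and signalling genes, 3 (4.84%) were higher in KO LT-HSC, at Ghr and Ptger4. Lower were 2 (3.23%), at Trpc1 and Arap2. Among all tested regions 3.27% were higher and 1.47% lower. The 2 higher Ghr regions lay in its body (chromosome 15). They held 6.91, 6.83 and 6.32 CPM in KO LT-HSC and 4.33, 4.49 and 4.34 CPM in WT LT-HSC at 3356269 to 3356676 (0.61 ± 0.11, adjusted p = 0.00181), and 3.61, 3.36 and 3.43 CPM in KO LT-HSC against 2.35, 1.99 and 1.88 CPM in WT LT-HSC at 3435553 to 3436060 (0.74 ± 0.16, adjusted p = 0.00702). Both ended only with the gene-end covariate, at adjusted p of 0.0600 and 0.157. The sum over all 13 Ghr regions did not pass (0.11 ± 0.04, adjusted p = 0.0776). Ptger4 was higher at its start, with 44.6, 42.1 and 44.7 CPM in KO LT-HSC and 37.6, 37.6 and 34.1 CPM in WT LT-HSC (0.26 ± 0.06, adjusted p = 0.0111), and this call ended with the gene-end covariate, with the loess offset and without KO LT-HSC 1 or WT LT-HSC 3. Trpc1, a cation channel, was lower at 1 region outside its body (-1.09 ± 0.30, adjusted p = 0.0323, lost with the gene-end covariate, the loess offset or without KO LT-HSC 1 or 2 or WT LT-HSC 1 or 2) and on its sum, with 21.6, 20.7 and 20.8 CPM in KO LT-HSC and 23.7, 25.3 and 25.3 CPM in WT LT-HSC (-0.23 ± 0.07, adjusted p = 0.0191, lost without KO LT-HSC 2 or 3 or WT LT-HSC 2 or 3). Arap2 was lower at 1 intragenic region (log2 fold change -0.45, adjusted p = 0.0433). That call ended with the gene-end covariate and without KO LT-HSC 2 or 3 or WT LT-HSC 1, 2 or 3. The Arap2 sum was lower too (-0.23 ± 0.06, adjusted p = 0.0213, lost without KO LT-HSC 2 or WT LT-HSC 1).

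Of the 93 regions at stress and metabolic genes, 3 (3.23%) were higher, at Gda and Cyp26b1, and 3 lower, at Gstm2, Sult1a1 and Cyp26b1, against the 3.27% higher and 1.47% lower of all regions. The start of Gstm2 had 0.936, 1.66 and 1.25 CPM in KO LT-HSC and 1.81, 1.97 and 3.44 CPM in WT LT-HSC (chromosome 3, 107986264 to 107986706; -0.92 ± 0.24, adjusted p = 0.0245). This call ended with the gene-end covariate, with the loess offset and without KO LT-HSC 1, KO LT-HSC 3 or WT LT-HSC 3, the last being the highest of the 6. On its sum Gstm2 had 2.88, 3.58 and 4.01 CPM in KO LT-HSC and 5.04, 5.06 and 6.62 CPM in WT LT-HSC, the largest fall among the 31 genes (-0.70 ± 0.15, adjusted p = 0.00349), kept under all 10 alternatives. The strongest Gda region (chromosome 19, 21441802 to 21442204) had 34.2, 35.5 and 36.8 CPM in KO LT-HSC and 28.2, 29.0 and 29.6 CPM in WT LT-HSC (0.29 ± 0.08, adjusted p = 0.0375). Leaving out any of the 6 LT-HSC libraries ended that call, as did total counts, the loess offset, the gene-end covariate and the filter at 1 CPM in 3 libraries. Mt1 and Mt2 had no region that passed. The Mt1 start held 14.2, 16.0 and 17.0 CPM in KO LT-HSC and 12.4, 13.1 and 14.4 CPM in WT LT-HSC (0.24 ± 0.08, adjusted p = 0.0937), ranges that overlap.

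On sums per gene 5 of the 31 were higher in KO LT-HSC (Gda, Jam2, Neo1, Ptger4, Wwtr1) and 4 lower (Gstm2, Clu, Trpc1, Arap2), where 8.09% of all genes were higher and 8.92% lower. The 5 higher genes became 1 without KO LT-HSC 2, 3 without KO LT-HSC 3 and 2 without WT LT-HSC 2, and the 4 lower became 2 without KO LT-HSC 2. Clusterin, Clu, a secreted chaperone, had 47.7, 46.0 and 45.7 CPM in KO LT-HSC and 51.6, 54.6 and 52.2 CPM in WT LT-HSC (-0.18 ± 0.05, adjusted p = 0.0101). With Gstm2 it was the gene whose sum kept its call under all 10 alternatives run on sums. These did not include the gene-end covariate or the loess offset. The CPM of all 364 regions together was 1493, 1498 and 1496 in KO LT-HSC and 1409, 1408 and 1376 in WT LT-HSC. With total counts alone it was 1466 to 1482 in KO LT-HSC and 1425 to 1444 in WT LT-HSC. Both the LT-HSC and the MPP marker genes lay higher in KO LT-HSC as well, at the sums given above. So did T cell markers (Cd3e, Cd3d, Lck), at 68.2 to 72.5 CPM in KO LT-HSC and 61.7 to 66.6 CPM in WT LT-HSC. Marker sums for megakaryocytes, B cells, macrophages and endothelium overlapped between the genotypes. The part of these lists in the higher total was not tested.

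In KO MPP 22 of the 357 regions (6.16%) were higher and 6 (1.68%) lower than in WT MPP, against 5.12% higher and 3.59% lower among all tested regions. The higher regions again belonged to 11 genes, the lower to 6, and 17 genes had none. The median log2 fold change was 0.03 over the 357 regions and -0.01 over all. Without KO MPP 2 the counts were 14 higher and 1 lower, without KO MPP 3 they were 15 and 0, without WT MPP 1 they were 14 and 5, and without WT MPP 2 they were 19 and 1. With total counts the split was 19 and 9, and with the gene-end covariate 13 and 1. Gene-end regions took 41.0% to 41.4% of the counts in KO MPP and 39.2% to 41.0% in WT MPP. Of the 21 named regions called in MPP, 9 kept the call under every alternative that gave a value. All 9 were higher in KO MPP.

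Of the 93 regions at stress and metabolic genes, 9 (9.68%) were higher in KO MPP, 6 of them at Gda, against 5.12% of all tested regions. The strongest Gda region had 12.3, 12.6 and 10.1 CPM in KO MPP and 7.19, 9.54 and 7.20 CPM in WT MPP (0.53 ± 0.10, adjusted p = 0.00086). The sum over Gda had 57.8, 60.05 and 60.4 CPM in KO MPP and 48.7, 50.7 and 45.8 CPM in WT MPP (0.29 ± 0.04, adjusted p = 6.6e-05), with no overlap. A pair of Gda regions that were higher in MPP than in LT-HSC were higher still in KO MPP. They had 3.35, 3.26 and 3.48 CPM in KO MPP and 2.18, 2.29 and 1.76 CPM in WT MPP at 21437498 to 21438020 (0.68 ± 0.16, adjusted p = 0.00724, and 0.149 with the gene-end covariate), and 4.99, 5.90 and 5.90 CPM in KO MPP against 4.01, 4.25 and 2.54 CPM in WT MPP at 21440776 to 21441259 (0.62 ± 0.15, adjusted p = 0.00769). The call of the second ended without KO MPP 2 and with the gene-end covariate, which gave 0.35 (adjusted p = 0.323). The Gda start did not pass (0.13 ± 0.08, adjusted p = 0.359).

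The flanking region of Nupr1 was 1 of the 9 stable calls. It had 5.11, 5.26 and 4.93 CPM in KO MPP and 3.38, 4.06 and 4.02 CPM in WT MPP (0.42 ± 0.10, adjusted p = 0.00661), while in LT-HSC it had 45.1, 44.0 and 46.4 CPM in KO and 43.1, 42.2 and 45.7 CPM in WT (0.05 ± 0.07, adjusted p = 0.742). The difference in genotype effect between the populations, the interaction, did not pass at this region. On the Nupr1 sum it did not pass either (0.23 ± 0.07, adjusted p = 0.283). Cyp26b1 had 2 higher regions that kept their calls. The region 45723 bases outside its body held 6.39, 6.64 and 5.71 CPM in KO MPP and 4.46, 4.04 and 4.02 CPM in WT MPP (chromosome 6, 84525188 to 84525691; 0.58 ± 0.11, adjusted p = 0.00162). The intragenic region held 0.974, 1.53 and 1.72 CPM in KO MPP and 0.626, 0.646 and 0.710 CPM in WT MPP (84585001 to 84585402; 1.13 ± 0.23, adjusted p = 0.00258).

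Ptger4 had 3 higher regions in KO MPP, of which 2 in its body kept their calls. They had 5.30, 5.997 and 6.06 CPM in KO MPP and 3.58, 4.33 and 3.96 CPM in WT MPP (chromosome 15, 5239855 to 5240362; 0.55 ± 0.11, adjusted p = 0.00236), and 1.83, 1.95 and 1.72 CPM in KO MPP and 0.877, 0.979 and 1.15 CPM in WT MPP (5235465 to 5235974; 0.89 ± 0.19, adjusted p = 0.00367). Plscr2, a phospholipid scramblase, had 3 higher regions. The strongest, 747 bases outside its body, had 11.5, 12.1 and 11.4 CPM in KO MPP and 8.49, 9.42 and 8.62 CPM in WT MPP (chromosome 9, 92274363 to 92274855; 0.39 ± 0.09, adjusted p = 0.00372). A Runx1t1 intragenic region (chromosome 4, 13805705 to 13806162) had 9.43, 9.65 and 10.4 CPM in KO MPP and 6.94, 7.69 and 6.05 CPM in WT MPP (0.50 ± 0.10, adjusted p = 0.00143), and the Ptprk region higher in KO LT-HSC was also higher in KO MPP, at 4.33, 5.33 and 4.64 CPM in KO MPP against 3.43, 2.98 and 3.01 CPM in WT MPP (0.61 ± 0.13, adjusted p = 0.00377).

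The 6 lower regions in KO MPP lay at Clu, Sbspon, Alcam, Arap2, Ptprk and Cyp26b1, and none kept its call under all alternatives. The Alcam start had 62.0, 59.9 and 60.4 CPM in KO MPP and 68.6, 69.5 and 70.3 CPM in WT MPP (chromosome 16, 52452920 to 52453399; -0.19 ± 0.05, adjusted p = 0.0217), a call lost with the gene-end covariate and without KO MPP 2, KO MPP 3 or WT MPP 2. Clu was lower at a region 2628 bases outside its body, with 1.44, 1.14 and 1.19 CPM in KO MPP and 1.95, 2.17 and 2.03 CPM in WT MPP (-0.73 ± 0.19, adjusted p = 0.0136; lost with the gene-end covariate and without KO MPP 2, KO MPP 3 or WT MPP 2). On sums per gene 5 were higher in KO MPP (Nupr1, Gda, Jam2, Ptger4, Plscr2) and 4 lower (Clu, Sbspon, Alcam, Ehd3), where 15.4% of all genes were higher and 13.8% lower. The 5 higher became 3 without KO MPP 2 or without WT MPP 1. Clu had 42.6, 39.7 and 41.5 CPM in KO MPP and 46.2, 47.5 and 50.6 CPM in WT MPP (-0.22 ± 0.05, adjusted p = 0.00147), a sum that was lower in both populations. The sums of Nupr1, Gda, Clu, Alcam and Plscr2 kept their calls under all 10 alternatives run on sums, which did not include the gene-end covariate. Pclo, the presynaptic scaffold piccolo, varied most between its libraries, with 8.10, 15.0 and 6.76 CPM in KO MPP and 7.41, 7.60 and 9.52 CPM in WT MPP.

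**Figure D5:**
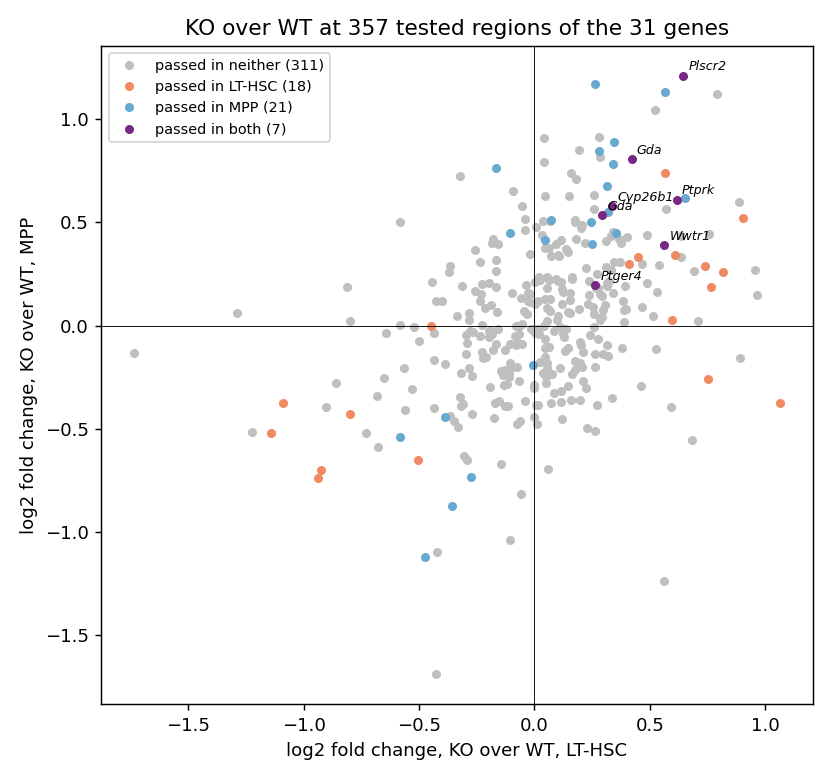
Log2 fold change of KO over WT in MPP (y axis) against that in LT-HSC (x axis) for the 357 tested regions, coloured by the comparison in which a region passed. In neither comparison passed 311 regions, in LT-HSC alone 18, in MPP alone 21 and in both 7, and these 7 are higher in KO in both.

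The 2 genotype comparisons use separate libraries. Of the 18 regions higher in KO LT-HSC, 7 (38.9%) were also among the 22 higher in KO MPP (31.8% of these), and they lay at Gda (2), Ptprk, Ptger4, Cyp26b1, Plscr2 and Wwtr1. At the Wwtr1 start KO MPP had 5.14, 5.03 and 4.50 CPM and WT MPP 3.81, 3.40 and 4.06 CPM (0.39 ± 0.11, adjusted p = 0.0303, lost with the gene-end covariate and without KO MPP 1 or 2 or WT MPP 1 or 2). No lower region was shared. For 16 of the 18 higher and 7 of the 7 lower regions of LT-HSC the fold change had the same sign in MPP. The shares of shared calls and of matching signs over all tested regions were not counted. These counts therefore do not show a trait particular to the signature genes. The edgeR interaction test called 0 of the 357 regions at an adjusted p under 0.05, where it called 0.00805% of all regions, and limma-voom also called 0. DESeq2, run without the filter on all 364 regions, gave no adjusted p for 287 and called 0 of the rest. At an unadjusted p under 0.05 there were 24 (6.72%), where all regions gave 7.56%.

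For comparison, 2 other lists of genes tied to HSC ageing were counted. For 5 other genes known to be higher in aged HSC (Selp, Vwf, Slamf1, Itgb3, Itga2b), 34 of 85 tested regions (40%) were lower and 30 (35.3%) higher in WT MPP, with a median of -0.07. For 5 lymphoid genes known to be lower in aged HSC (Flt3, Il7r, Sox4, Blnk, Satb1), 13 of 107 (12.1%) were lower and 68 (63.6%) higher, with a median of 0.75. All tested regions gave 35.2% lower and 34.6% higher. In KO over WT LT-HSC the first list had 2 regions higher (2.35%) and 1 lower (1.18%), and the lymphoid list 3 (2.80%) and 0. All tested regions gave 3.27% and 1.47% there. In MPP the first list had 7 higher (8.24%) and 2 lower (2.35%), and the lymphoid list 5 (4.67%) and 4 (3.74%), against 5.12% and 3.59% of all tested regions. Slamf1 and Flt3 also serve as population markers above. Of 169 tested regions at the LT-HSC marker genes, 116 (68.6%) were lower and 10 (5.92%) higher in WT MPP, with a median of -0.99. Megakaryocyte and endothelial markers also had more regions lower than higher. Markers of MPP, T cells, B cells and macrophages had more higher than lower. Lower accessibility in MPP was thus not particular to the signature genes. No test of the difference between the lists was made.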

How the data were processed

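The deposited file holds raw counts of reads per accessible region for all 12 libraries in 1 table of 188262 regions, with no normalization by the authors. Per the submitters' processing notes, the tools were MACS2 2.1.1, DESeq2 1.22.1, Bowtie2, featureCounts and cutadapt, with GRCm38. The sources used here do not give their order or settings, how duplicates were handled or how the union of regions was built. Because the table has no reads from outside its regions, background was not measured.

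Groups came from the sample labels. The 31 genes, the lists and the motifs were chosen with earlier results of these data known. Regions were assigned with RefSeq genes of GRCm38.p6, which also gave the promoter sequences. The edgeR 4.0.16 quasi-likelihood F test (2-sided, R 4.3.3) was fitted to all 12 libraries with a mean for each of the 4 groups, scaled by TMM and filtered with filterByExpr (minimum count 10), which kept 186373 regions and left out 1889. P-values were adjusted by Benjamini-Hochberg over all regions, or over 18826 genes for sums, with a threshold of 0.05. The biological coefficient of variation was 8.18%. The SE of a log2 fold change is its size over the square root of F. Scripts were tested on simulated data.

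Named regions are the strongest region and the start region of each gene, all called regions or the 12 of lowest p per direction in KO over WT, and the 10 largest changes per direction between populations among regions above the median level with no overlap. For the interaction no region passed, and the rule picked the 3 of lowest p, at Nupr1, Ghr and Ptprk. Of these only the Nupr1 flanking region is described above. For sums these are all genes called in KO over WT and the 8 largest per direction between populations. Others were named after their values were seen. Alternatives were no filter, scaling by total counts, RLE or a loess offset, 1 CPM in 3 libraries, DESeq2 1.42.0, limma-voom (limma 3.58.1), the compared groups alone, replicate number as a block, gene-end share as a covariate, each library left out, an adjusted p under 0.01, and assignment by body overlap alone or within 20 kb.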

Additional observations from a re-analysis of the deposited data

Results flagged for a closer look

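The KO over WT difference had opposite signs in the 2 populations, without passing any test, at 1 region assigned to Osmr, the oncostatin M receptor, 34679 bases outside its body (chromosome 15, 6909647 to 6910077). In MPP this region had 8.497, 7.58 and 7.52 CPM in KO and 9.19, 9.09 and 9.37 CPM in WT, with every KO library below every WT library. The same held for 13.6% of all tested regions. In LT-HSC it had 12.1, 11.6 and 12.02 CPM in KO and 11.2, 11.4 and 11.2 CPM in WT, with every KO library above every WT library, as for 13.4% of all tested regions. The interaction of -0.3124 on the log2 scale (SE 0.13) did not pass in edgeR's quasi-likelihood test with Benjamini-Hochberg adjustment (adjusted p = 0.573), and neither genotype effect passed on its own (adjusted p = 0.099 in MPP and 0.663 in LT-HSC).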

How the results depend on the processing

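The lower accessibility of the signature genes in MPP kept its direction and size: the count of lower regions stayed within 1.5 times under every alternative, and that of higher regions did except with body overlap alone, where 41 (WT) and 44 (KO) regions were counted. The genotype counts moved more. In LT-HSC the 18 higher regions became 11 with 1 CPM in 3 libraries or DESeq2, 2 with the gene-end covariate, 9 with total counts, 5 at an adjusted p under 0.01 and 7 to 11 with 1 library left out, and the 7 lower became 1 with DESeq2, the covariate or the loess offset, 0 at the stricter threshold and 1 to 4 with 1 library left out. In MPP the 22 higher became 13 with the covariate, 12 at the stricter threshold and 14 to 21 with 1 library left out, and the 6 lower became 3 with DESeq2 or within 20 kb, 1 with the covariate or body overlap alone, 0 at the stricter threshold and 0 to 5 with 1 library left out. Sums per gene gave 1 to 5 higher and 2 to 4 lower in LT-HSC and 3 to 5 higher in MPP with 1 library left out. Cd38 Peak_133327 (chromosome 5, 43921540 to 43921956) reversed for MPP over LT-HSC in WT, with a log2 fold change of -0.1712 with the covariate and 0.60 without it. The cause was not tested in any of these. DESeq2 gave no adjusted p for 210 of the 364 regions in LT-HSC, 151 in MPP and 287 for the interaction. Same-numbered libraries of different genotype had correlations of deviations from -0.037 to 0.033. Between LT-HSC and MPP of 1 genotype all were positive, at 0.054, 0.064 and 0.055 in KO and 0.073, 0.089 and 0.114 in WT. Whether these pairs share a mouse was not tested, and no fit paired them within a genotype. The replicate block grouped libraries by number across genotypes. With the replicate block the counts were 22 higher and 7 lower in LT-HSC, 25 and 7 in MPP, 75 and 200 between populations in WT and 77 and 207 in KO, and 0 for the interaction. Regions under about 1 CPM rest on few counts and carry the largest SE.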
